A study of Homo sapiens with 38 samples.

Results

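The TNRC6 genes, also called the GW182 family, were followed through nuclear and cytoplasmic RNA of HCT116 cells, a human colorectal carcinoma line, with and without Argonaute (AGO) genes. The 3 genes of the family, TNRC6A, TNRC6B and TNRC6C, were chosen by name from the 58425 genes with a transcript in the deposited tables, and the estimated reads and TPM of all their transcripts were summed. Wild-type cells were compared with 4 CRISPR-edited lines, the labelled knockouts of AGO1, of AGO2, of both (AGO1/2) and of AGO1, AGO2 and AGO3 together (AGO1/2/3), and no treatment was given. Each fraction had 3 libraries per genotype, which gave 10 groups and 30 libraries. Wild-type cultures were at passages 27 to 29 and knockout cultures at passages 6 to 14, and each knockout was 1 line, so that genotype, clone and passage cannot be told apart. The 3 libraries of a group are 3 passages of that line. The p-values of the fits rest on the spread between passages, pooled over all groups of a fit, and do not measure the spread between lines.

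TNRC6 proteins are the scaffold of microRNA (miRNA) silencing. Their glycine-tryptophan repeats bind Argonaute, which holds the miRNA, and their silencing domain binds the poly(A)-binding protein PABPC and recruits the PAN2-PAN3 and CCR4-NOT deadenylases, which shorten the poly(A) tail before decapping and decay of the messenger. The proteins lie mostly in the cytoplasm, in part in P-bodies, and are also found in nuclei.

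In the hg38 build TNRC6A (ENSG00000090905.19) spans chr16:24610209-24827632, TNRC6B (ENSG00000100354.21) chr22:40044817-40335808 and TNRC6C (ENSG00000078687.18) chr17:77958703-78108822, each on the plus strand. The deposited tables hold 18 transcripts of TNRC6A, 9 of TNRC6B and 9 of TNRC6C. The 3′ end of TNRC6C overlaps the antisense gene TMC6, which had a median of 11.7 TPM over the libraries. The libraries are stranded. The other 6 overlapping genes each had a median of at most 0.249 TPM and never more than 20 reads in a library.

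The family is itself a set of messengers that miRNAs could bind, so the 3′ untranslated regions (UTRs) of the 3 reference transcripts were searched for matches to the seeds of 12 miRNAs well known from epithelial and cancer cells. The levels of these miRNAs were not measured in these libraries. The 3′ UTR was 2411 nucleotides long in TNRC6A (TNRC6A-202), 12567 in TNRC6B (TNRC6B-206) and 3977 in TNRC6C (TNRC6C-210). These reference transcripts are not among the leading transcripts by share of TPM named below. Only 0.387% of 19386 annotated 3′ UTRs were as long as that of TNRC6B, against 25.2% for TNRC6A and 11.4% for TNRC6C. Counted once for each of the 11 distinct seeds, the 3′ UTRs held 8, 24 and 9 matches in TNRC6A, TNRC6B and TNRC6C. Seeds of 5 miRNAs (miR-17-5p, miR-19b-3p, miR-26a-5p, miR-30a-5p and miR-148a-3p) matched all 3 genes, and those of let-7a-5p, miR-92a-3p and miR-200b-3p matched none. Every miR-148a-3p match overlapped a miR-19b-3p match, so these stretches were counted under both seeds. miR-200a-3p and miR-141-3p share 1 seed, which matched TNRC6B 7 times, TNRC6C once and TNRC6A not at all. Of the 3′ UTRs of like length to that of TNRC6B, 72.9% held this match, with a median of 1.

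The sequences of miR-26a-5p and miR-30a-5p are shown because miR-26a-5p was matched, with an adenine after each match, in all 3 genes and miR-30a-5p had the most matches in TNRC6A. Capitals mark bases 2 to 8 of the miRNA, the seed, and in the target sites the complementary 7 bases, TACTTGA for miR-26a-5p and TGTTTAC for miR-30a-5p, searched on the sense strand of the 3′ UTR. The mature miRNAs are from RefSeq.
miR-26a-5p: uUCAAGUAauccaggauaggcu
TNRC6A, chr16:24823946-24823967: catatcagtttgaaTACTTGAa
TNRC6B, chr22:40323465-40323486: tatcactcttgaaaTACTTGAa
TNRC6B, chr22:40335024-40335045: ttttttttttcttaTACTTGAa
TNRC6C, chr17:78105475-78105496: atcaaacatgcaaaTACTTGAa
miR-30a-5p: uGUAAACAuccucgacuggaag
TNRC6A, chr16:24824248-24824269: tgtcccagtgtcaaTGTTTACt
TNRC6A, chr16:24824539-24824560: actttgaaccttctTGTTTACa
TNRC6A, chr16:24824579-24824600: ttgagaaaaaaaaaTGTTTACt
TNRC6A, chr16:24825345-24825366: cagtggcttttaacTGTTTACa
TNRC6B, chr22:40325911-40325932: gctagagcccctctTGTTTACa
TNRC6B, chr22:40334623-40334644: atcctagggggctaTGTTTACa
TNRC6C, chr17:78105878-78105899: aattcatgtgtaaaTGTTTACt
TNRC6C, chr17:78106180-78106201: tttgggctcccaccTGTTTACa
A miR-26a-5p match was present in 17.7%, 64.7% and 24.4% of the 3′ UTRs within 20% of the length of those of TNRC6A, TNRC6B and TNRC6C. A miR-30a-5p match was present in 22.6%, 68.4% and 32.8% of them. A match is a stretch of letters and not a measured site.

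Libraries held 20431557 to 54097984 estimated reads in nuclear RNA and 39476205 to 79731793 in cytoplasmic RNA, with the wild-type libraries the shallowest of each fraction. The nuclear RNAs MALAT1 and NEAT1 had 12.3 to 25.5 and 12.0 to 16.9 times the TPM in nuclei that they had in cytoplasm, over the 5 genotypes. For the mitochondrial RNAs MT-CO1 and MT-ND1 this ratio was 0.0226 to 0.0409 and 0.0550 to 0.106, and for GAPDH 0.644 to 1.79. All 7 epithelial markers were expressed, and 7 of the 9 markers of other cell types stayed below 1 TPM in every library. The nuclear AGO1/2 and AGO1/2/3 libraries differed from nuclear wild type well beyond the TNRC6 genes. The mean TPM of GAPDH, a cytoplasmic messenger, was 1263 in wild-type nuclei, 2666 in AGO1/2 and 2018 in AGO1/2/3 nuclei. In cytoplasm of these genotypes it was 1961, 1486 and 1929, so that GAPDH was higher in nuclei than in cytoplasm in both multiple knockouts. MALAT1 stood at 3041, 1313 and 1355 TPM in the nuclei in the same order. The summed TPM of the epithelial markers was 1170 to 1281 in wild-type nuclei, 2639 to 2803 in AGO1/2 and 2047 to 2397 in AGO1/2/3 nuclei. The keratins KRT8, KRT18 and KRT19 had higher means there than in wild type, while EPCAM, an epithelial adhesion protein, stood at 98.1, 62.7 and 62.2 TPM and CDH1, E-cadherin, at 21.3, 4.15 and 5.77 TPM in the same order. The part of these shifts in the nuclear values and the fraction comparisons of the TNRC6 genes was not tested.

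On TPM, the scale that is corrected for transcript length and so comparable between genes, TNRC6A had the highest group mean of the 3 genes in every group and TNRC6C the lowest. In wild-type nuclei TNRC6A had 37.8 ± 8.45 TPM (SD, n = 3), TNRC6B 21.3 ± 1.42 and TNRC6C 11.4 ± 2.11. In wild-type cytoplasm the means were 14.5 ± 4.92, 10.5 ± 0.588 and 5.34 ± 0.676 TPM. TNRC6A made up between 45.8% and 54.9% of the family's summed TPM in the 10 group means.

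The comparisons between genotypes below rest on CPM, the estimated reads of a gene scaled to a common library total with edgeR's TMM factors, which is comparable between libraries of a fraction but not between genes. In nuclear RNA, TNRC6A had 234.4, 222.0 and 152.9 CPM in wild-type cells at passages 27, 28 and 29. The AGO1 knockout had 240.4, 226.9 and 215.4 CPM, and the AGO2 knockout 247.0, 232.6 and 221.8. The AGO1/2 knockout stood at 292.5, 312.9 and 258.4 CPM and the AGO1/2/3 knockout at 249.9, 252.7 and 250.9. Wild-type passage 29 was the lowest of the 15 nuclear libraries, the single knockouts overlapped wild type, and both multiple knockouts lay above all 3 wild-type libraries. How many of all genes separate in this way was not counted, here or for the groups without overlap below.

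TNRC6B, the paralog with the longest 3′ UTR, had 294.4, 291.6 and 285.7 CPM in wild-type nuclei. It had 316.9, 333.4 and 331.5 in AGO1 and 294.6, 306.1 and 311.8 in AGO2 knockout nuclei. It had 383.5, 345.5 and 415.3 CPM in AGO1/2 and 392.1, 385.7 and 435.3 in AGO1/2/3 knockout nuclei. Each knockout lay above wild type without overlap, by a margin of under 1 CPM for AGO2, and the ranges of the 2 multiple knockouts overlapped. On mean TPM the AGO2 knockout stood below wild type (ratio 0.909).

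TNRC6C, the least abundant paralog, had 71.4, 67.2 and 61.1 CPM in wild-type nuclei. The AGO1 knockout had 72.5, 73.1 and 71.8 CPM and the AGO2 knockout 71.7, 70.6 and 70.6. The AGO1/2 knockout had 111.6, 116.2 and 107.3 CPM and the AGO1/2/3 knockout 97.1, 91.2 and 98.2. From the lowest mean to the highest the order was wild type, AGO2, AGO1, AGO1/2/3 and AGO1/2, and among neighbours in it only wild type and AGO2 overlapped.

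**Figure D1:**
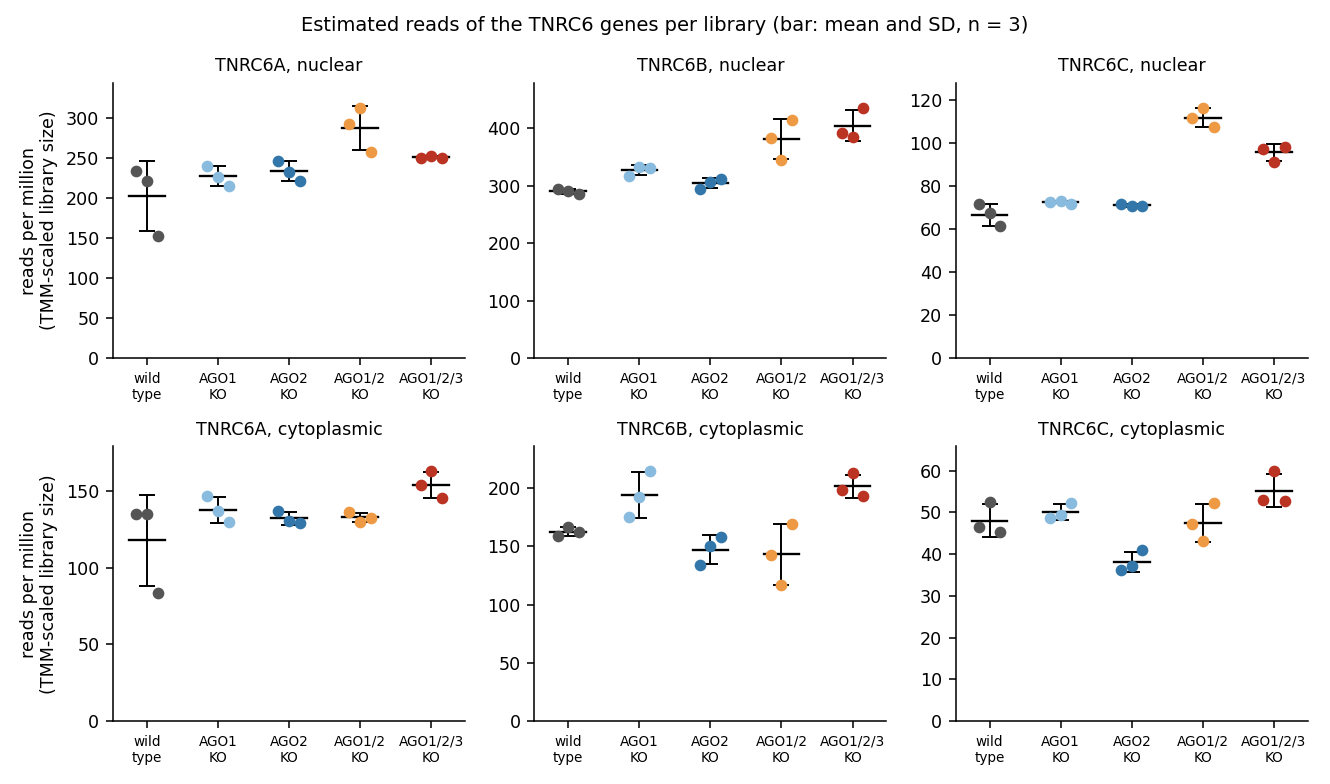
CPM (linear axis from 0) of TNRC6A, TNRC6B and TNRC6C in each nuclear and cytoplasmic library by genotype. Points are libraries, and bars give the group mean and SD (n = 3). In nuclei the AGO1/2 and AGO1/2/3 points of all 3 genes lie above every wild-type point, and wild-type passage 29 is the lowest point for TNRC6A in both fractions. How many of all genes separate in this way was not counted.

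All 3 genes rose in nuclei of the AGO1/2 knockout by edgeR's quasi-likelihood test at a Benjamini-Hochberg adjusted p of 0.05, in a fit in which 67.6% of 18919 genes were called and 32.9% were called higher. TNRC6C rose 1.68-fold, a log2 fold change of 0.75 ± 0.0591 (SE, n = 3 against 3, adjusted p = 3.66e-08). TNRC6A rose 1.42-fold (log2 0.50 ± 0.119, adjusted p = 0.00162) and TNRC6B 1.31-fold (log2 0.39 ± 0.0677, adjusted p = 0.000109). The call of TNRC6A was lost with reads scaled by transcript length (0.11, adjusted p = 0.421) and on log2(TPM + 1) (0.04), and that of TNRC6B on log2(TPM + 1) (0.17, adjusted p = 0.0648). Over all genes tested the median was −0.06, and a call was the more frequent outcome for a gene in this comparison.

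In nuclei of the AGO1/2/3 knockout, where 58.6% of genes were called and 29.1% called higher, all 3 genes rose as well in the edgeR fit, with TNRC6A turning to −0.24 on log2(TPM + 1). TNRC6C rose 1.43-fold (log2 0.52 ± 0.0591, adjusted p = 2.45e-06), TNRC6B 1.39-fold (log2 0.48 ± 0.0678, adjusted p = 2.33e-05) and TNRC6A 1.24-fold (log2 0.31 ± 0.119, adjusted p = 0.0379). The call of TNRC6A was lost when wild-type passage 29 was left out (log2 0.16, adjusted p = 0.0792) or any 1 of the 3 knockout libraries. In the AGO1/2 knockout TNRC6A was still called without wild-type passage 29 (log2 0.36, adjusted p = 0.000609).

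The single knockouts gave no call in nuclei. In the AGO1 knockout, where 29.9% of genes were called, edgeR called 0 of the 3 genes, 1 (TNRC6B) had an unadjusted p below 0.05, and DESeq2 called 1. TNRC6B differed there by a log2 value of 0.17 ± 0.0677 (adjusted p = 0.0688), TNRC6A by 0.16 ± 0.119 and TNRC6C by 0.12 ± 0.0594. In the AGO2 knockout, where 40.2% of genes were called, edgeR called 0 of 3, 0 had an unadjusted p below 0.05 and DESeq2 called 0. The log2 values were 0.20 for TNRC6A, 0.07 for TNRC6B and 0.09 for TNRC6C, and limma on log2(TPM + 1) called TNRC6C lower (−0.35). On mean TPM all 3 genes stood below wild type in nuclei of both single knockouts, against these positive values. The ratios for TNRC6A, TNRC6B and TNRC6C were 0.798, 0.990 and 0.880 in AGO1 and 0.817, 0.909 and 0.757 in AGO2 nuclei. Without wild-type passage 27, edgeR called TNRC6C in both single knockouts (adjusted p = 0.0330 and 0.0417) and TNRC6A in the AGO2 knockout (0.0394).

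The AGO1/2/3 line can also be set against the AGO1/2 line, which asks what differs with the further loss of AGO3. In nuclei 3.48% of genes were called in this comparison. TNRC6C was lower in the AGO1/2/3 knockout (log2 −0.23 ± 0.0581, adjusted p = 0.0481), a call that was lost in 5 of the 6 fits with 1 library left out. TNRC6A (log2 −0.20, adjusted p = 0.316) and TNRC6B (log2 0.08, adjusted p = 0.457) were not called.

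**Figure D2:**
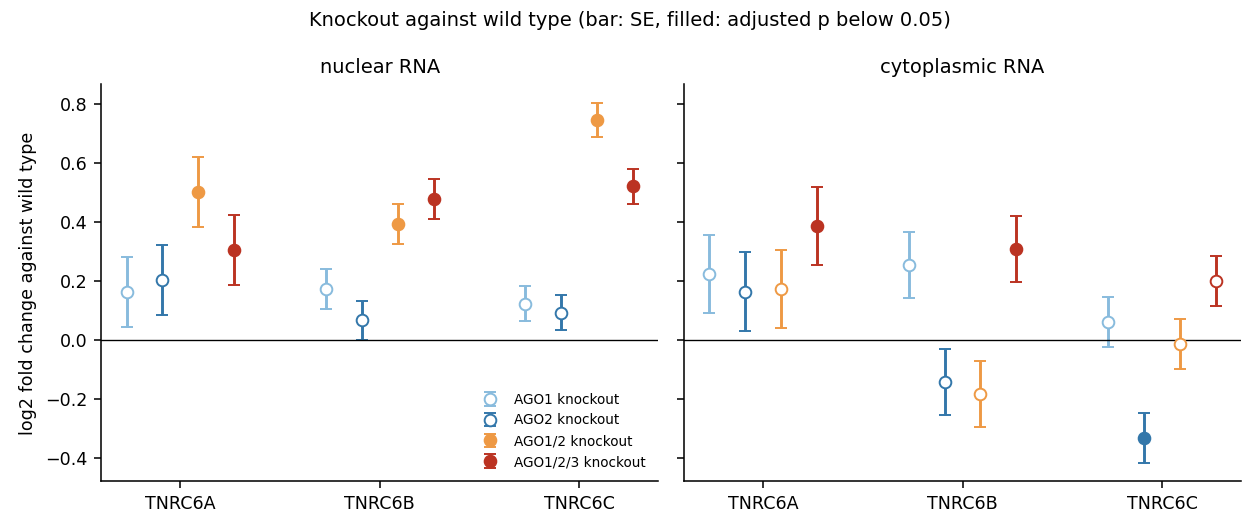
Log2 fold change (CPM scale) of each TNRC6 gene in each knockout against wild type (edgeR), nuclear in 1 panel and cytoplasmic in the other. Bars are 1 SE, and filled points passed an adjusted p of 0.05. The 6 nuclear values of the multiple knockouts, from 0.31 to 0.75, are all filled. On log2(TPM + 1) only TNRC6C in AGO1/2 was called among these, and TNRC6A in AGO1/2/3 was −0.24. In cytoplasm 3 are filled, TNRC6C in AGO2 (−0.33), and TNRC6A (0.39) and TNRC6B (0.31) in AGO1/2/3. The last 2 were 0.20 and −0.12 on log2(TPM + 1) and not called.

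The nuclear results depend on the scale. TPM corrects for the length of the transcripts to which reads were assigned, and on log2(TPM + 1) with limma, TNRC6A differed by 0.04 in AGO1/2 (adjusted p = 0.827) and −0.24 in AGO1/2/3 knockout nuclei (adjusted p = 0.224). On that scale 1 of the 3 genes, TNRC6C, was called in AGO1/2 nuclei and none in AGO1/2/3 nuclei. On this scale the median of all genes was −0.07 in AGO1/2 and −0.16 in AGO1/2/3 nuclei, and over all comparisons it lay between −0.20 and 0.48, against −0.06 to 0.09 in the edgeR fits. Relative to that median TNRC6A lay above the middle of all genes in AGO1/2 and below it in AGO1/2/3 nuclei. When transcripts annotated as retained intron were left out of the sums, an alternative chosen after seeing the data, edgeR called all 3 genes in both multiple knockouts, and limma on log2(TPM + 1) gave log2 values of 0.57 for TNRC6A, 0.25 for TNRC6B and 0.61 for TNRC6C in AGO1/2 nuclei, all called. The same fit gave 0.19 (adjusted p = 0.300), 0.26 (0.00590) and 0.33 (0.0383) in AGO1/2/3 nuclei.

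Transcripts annotated as retained intron, which keep an intron and are typically held in the nucleus, made up 9 of the 18 TNRC6A transcripts, 2 of the 9 of TNRC6B and 4 of the 9 of TNRC6C. In nuclear RNA they took 37.8%, 45.6% and 43.0% of TNRC6A TPM in the wild-type libraries. They took 37.2%, 26.3% and 27.6% in AGO1 and 28.1%, 27.3% and 25.8% in AGO2 knockout nuclei. They took 16.0%, 14.3% and 16.3% in AGO1/2 and 24.0%, 20.7% and 18.6% in AGO1/2/3 knockout nuclei. Every knockout library lay below every wild-type library.

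The share was far smaller when counted in reads, which are not corrected for length. Of TNRC6A reads in nuclei, 7.70% ± 0.867 (SD, n = 3) were assigned to retained-intron transcripts in wild type, 2.13% ± 0.147 in AGO1/2 and 2.91% ± 0.243 in AGO1/2/3 knockout cells. The groups did not overlap, and the exact two-sided permutation test gave p = 0.1, the smallest it can give for 3 against 3. For TNRC6C the share of TPM was 25.7% in wild type, 13.8% in AGO1/2 and 14.5% in AGO1/2/3 nuclei, and for TNRC6B 12.8%, 7.80% and 7.81%. Over all 27905 retained-intron transcripts of the tables the nuclear share of reads was 8.31% in wild type, 4.22% in AGO1/2 and 4.84% in AGO1/2/3 knockout cells. In cytoplasm the mean share of TNRC6A TPM lay between 3.83% and 8.98% in the 5 genotypes.

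**Figure D3:**
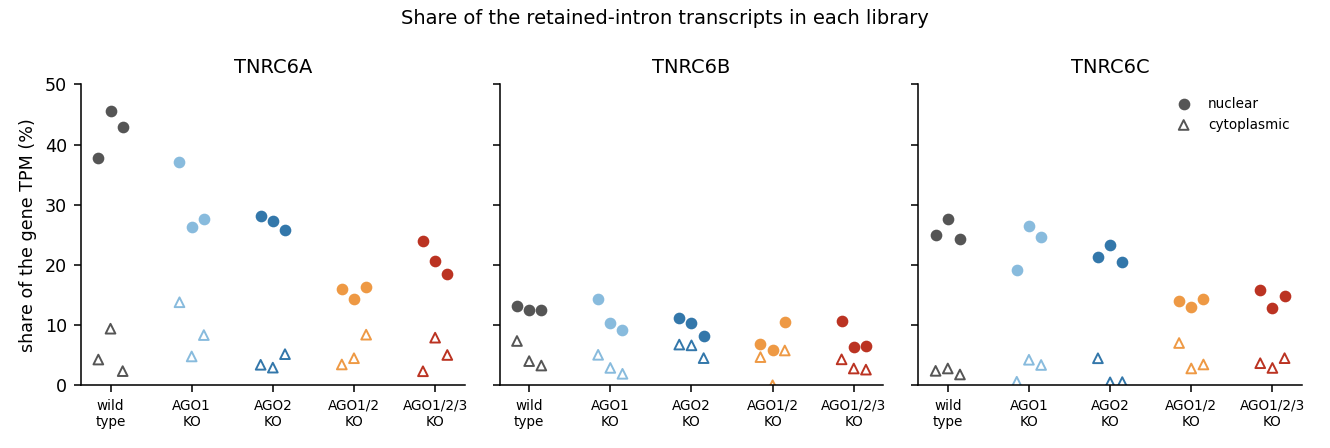
Share of each gene's TPM (percent, axis from 0) in transcripts annotated as retained intron, by genotype. Each point is a library, filled circles nuclear and open triangles cytoplasmic. For TNRC6A in nuclei the wild-type libraries lie between 37.8% and 45.6% and the AGO1/2 libraries between 14.3% and 16.3%.

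The transcripts outside that class had higher mean TPM in the multiple knockouts. For TNRC6A they summed to 21.9 ± 5.13 TPM (SD, n = 3) in wild-type, 32.5 ± 3.54 in AGO1/2 and 24.6 ± 0.525 in AGO1/2/3 nuclei, and the last overlapped wild type. For TNRC6B they summed to 18.6, 22.3 and 22.5 TPM and for TNRC6C to 8.48, 13.3 and 10.8 TPM in the same order, without overlap between wild type and either knockout. The exact permutation test gave its smallest p, 0.1, for each of the 5 differences without overlap.

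The TNRC6A transcript with the highest mean share of TPM over the 30 libraries was TNRC6A-201 (57.1%), followed by TNRC6A-203 (17.2%) and TNRC6A-209 (5.46%). For TNRC6B the leading transcripts were TNRC6B-202 (52.4%), TNRC6B-205 (24.3%) and the retained-intron transcript TNRC6B-208 (6.63%). For TNRC6C they were TNRC6C-209 (32.9%), TNRC6C-205 (27.9%) and TNRC6C-204 (14.8%). The deposited length of TNRC6C-205 was 8527 nucleotides, against 510 in the annotation used here, so its annotated class does not describe the sequence that was quantified.

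Use of each transcript against the others of its gene was tested with edgeR's diffSpliceDGE in 25 nuclear and 21 cytoplasmic transcripts of the family. The test compares a transcript with its gene as a whole and has little power for one that dominates its gene. In AGO1/2 nuclei, where 6.80% of all transcripts tested were called, 3 were called, all of TNRC6A. TNRC6A-203 (3700 nucleotides, chr16:24791487-24824786) went from 7.47% to 16.9% of the gene's TPM (adjusted p = 0.0279). The retained-intron transcripts TNRC6A-215 (943 nucleotides, chr16:24791690-24796368) and TNRC6A-206 (2740 nucleotides, chr16:24803922-24816347), named after their values were seen, went from 10.7% to 4.05% (adjusted p = 0.0327) and from 2.81% to 1.12% (adjusted p = 0.0423). With 1 library left out the count ran from 0 to 5.

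No other comparison had a called transcript by edgeR. The share of all transcripts called was 0.984%, 1.29% and 3.66% in AGO1, AGO2 and AGO1/2/3 nuclei and 1.18%, 1.21%, 1.63% and 1.47% in cytoplasm of the 4 knockouts. At an unadjusted p below 0.05 edgeR had 0, 0 and 4 of the family's transcripts in those nuclei and 2 in each cytoplasmic comparison. limma's diffSplice called 1, 0 and 8 in those nuclei, where it called 1.64%, 4.47% and 16.3% of all transcripts, and 9 in AGO1/2 nuclei, where it called 25.3%. In cytoplasm it called 0, 0, 1 and 1, against 0.713%, 0.935%, 2.46% and 1.49% of all transcripts.

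In cytoplasmic RNA, TNRC6A had 135.1, 134.9 and 83.4 CPM in wild-type cells. The single knockouts had 146.4, 136.6 and 129.9 CPM (AGO1) and 136.7, 130.2 and 129.1 CPM (AGO2), and the AGO1/2 knockout 135.9, 130.0 and 132.2. The AGO1/2/3 knockout had 153.5, 162.7 and 145.4 CPM and lay above wild type in every library. As in nuclei, wild-type passage 29 was the lowest library, and the other 2 wild-type libraries lay within the range of the single and double knockouts.

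TNRC6B had 159.0, 166.8 and 162.1 CPM in wild-type cytoplasm. The single knockouts had 175.0, 192.8 and 214.4 CPM (AGO1) and 134.0, 150.0 and 157.9 CPM (AGO2). The AGO1/2 knockout had 142.7, 117.1 and 169.7 CPM and the AGO1/2/3 knockout 198.1, 212.8 and 193.4. The AGO1 and AGO1/2/3 knockouts lay above wild type and the AGO2 knockout below it, while the AGO1/2 knockout, the most spread group, overlapped it.

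TNRC6C had 46.5, 52.5 and 45.2 CPM in wild-type cytoplasm. The single knockouts had 48.7, 49.4 and 52.3 CPM (AGO1) and 36.2, 37.3 and 40.9 CPM (AGO2). The AGO1/2 knockout had 47.1, 43.3 and 52.3 CPM and the AGO1/2/3 knockout 53.0, 59.8 and 52.9. Only the AGO2 knockout, below wild type, and the AGO1/2/3 knockout, above it, did not overlap the wild-type libraries.

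In the AGO1/2/3 knockout cytoplasm, where 38.7% of genes were called, TNRC6A rose 1.31-fold (log2 0.39 ± 0.133, adjusted p = 0.0325) and TNRC6B 1.24-fold (log2 0.31 ± 0.112, adjusted p = 0.0409). On log2(TPM + 1) neither was called, with 0.20 (adjusted p = 0.385) for TNRC6A and −0.12 for TNRC6B. The call of TNRC6A was also lost with only the compared groups in the fit (0.38, adjusted p = 0.154). TNRC6C was not called (log2 0.20 ± 0.0845, adjusted p = 0.0752). Without wild-type passage 29 TNRC6A kept its call at a log2 value of 0.19 (adjusted p = 0.0285), and without knockout passage 11 or 12 it lost it. The call of TNRC6B was lost whichever library was left out (adjusted p between 0.0594 and 0.124).

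In the AGO2 knockout cytoplasm, where 16.1% of genes were called, TNRC6C fell, with a log2 fold change of −0.33 ± 0.0849 (adjusted p = 0.0158), and the other 2 genes were not called (log2 0.16 and −0.14). That call was lost without wild-type passage 28 or without AGO2 passage 8 or 9 (adjusted p between 0.0574 and 0.0741). In the AGO1 knockout cytoplasm, where 12.4% of genes were called, edgeR called 0 of 3, 1 (TNRC6B, log2 0.26, adjusted p = 0.155) had an unadjusted p below 0.05 and DESeq2 called 0. In the AGO1/2 knockout cytoplasm, where 49.2% of genes were called, edgeR and DESeq2 called 0 of 3 and 0 had an unadjusted p below 0.05. The log2 values were 0.17, −0.18 and −0.01 for TNRC6A, TNRC6B and TNRC6C. On log2(TPM + 1) limma called TNRC6B (−0.67) and TNRC6C (−0.34) lower there.

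Between the AGO1/2/3 and AGO1/2 knockouts, 4.95% of genes were called in cytoplasm. TNRC6B was higher in the AGO1/2/3 knockout (log2 0.49 ± 0.112, adjusted p = 0.0305). That call was lost without AGO1/2 passage 9 or 10 or AGO1/2/3 passage 11 or 12, with reads scaled by transcript length (0.45, adjusted p = 0.0694) and with only the compared groups in the fit (0.50, adjusted p = 0.0951). TNRC6A (log2 0.21, adjusted p = 0.363) and TNRC6C (log2 0.21, adjusted p = 0.142) were not called.

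Each genotype's nuclear level was also set against its cytoplasmic level, relative to the rest of each fraction. Between 68.6% (AGO1/2) and 76.8% (wild type) of 20104 genes were called here, with 74.5% for the AGO1, 73.4% for the AGO2 and 70.2% for the AGO1/2/3 line. TNRC6B was higher in nuclei in all 5 genotypes, by log2 values of 0.40 ± 0.0964 in wild type, 0.33 and 0.61 in the knockouts of AGO1 and of AGO2, 0.90 ± 0.0966 in AGO1/2 and 0.49 in AGO1/2/3 cells. TNRC6C was higher in nuclei of AGO2 (0.46), AGO1/2 (0.72 ± 0.0773) and AGO1/2/3 lines (0.27) and was not called in wild type (0.04, adjusted p = 0.688) or the AGO1 knockout (0.11, adjusted p = 0.192). Both were called on other scales, with 0.50 and 0.47 for reads scaled by transcript length, 0.96 and 0.84 on log2(TPM + 1), and 0.27 and 0.30 with a mean count of at least 50. The median of all genes on log2(TPM + 1) reached 0.48 over all comparisons, and these values were not set against it.

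TNRC6A was higher in nuclei of wild-type (0.35 ± 0.141, adjusted p = 0.0254), AGO2 (0.39) and AGO1/2 knockout cells (0.61 ± 0.140). The wild-type value was 0.14 (adjusted p = 0.282) without cytoplasmic passage 29 and 0.55 (adjusted p = 0.000326) without nuclear passage 29. TNRC6A was not called in AGO1 (0.31, adjusted p = 0.0504) or AGO1/2/3 knockout cells (0.19, adjusted p = 0.228). With the culture as a replicate block it was called in both (0.31, adjusted p = 5.03e-05, and 0.19, adjusted p = 0.00369).

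**Figure D4:**
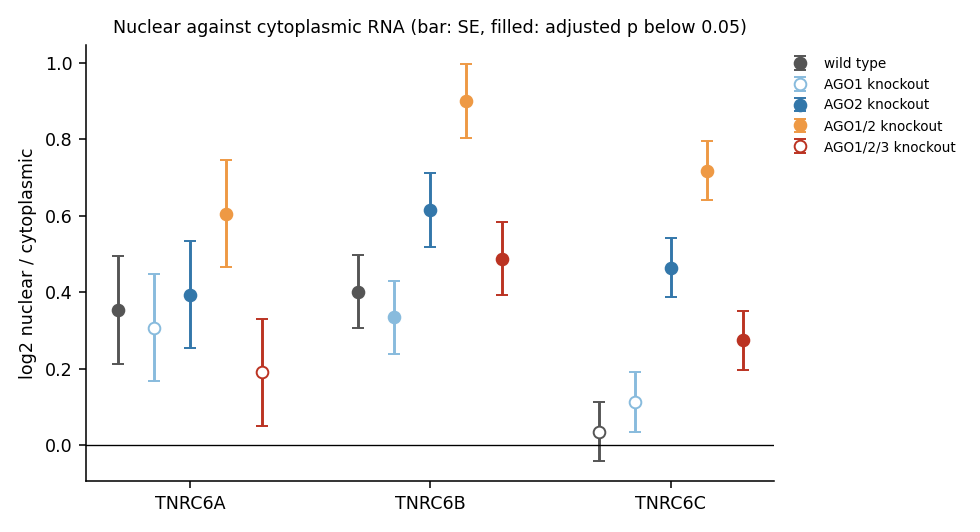
Nuclear against cytoplasmic log2 fold change (edgeR) of each TNRC6 gene in the 5 genotypes. Bars are 1 SE, and filled points passed an adjusted p of 0.05. The AGO1/2 knockout has the highest value for each gene, from 0.61 for TNRC6A to 0.90 for TNRC6B.

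Whether a knockout effect differed between the fractions was tested as an interaction, the nuclear minus the cytoplasmic log2 fold change, in a fit of all 30 libraries whose scaling differs from that of the fits within a fraction. For the AGO1/2 knockout, where 36.5% of genes were called, the effects on TNRC6C (0.68 ± 0.11, adjusted p = 2.58e-05) and TNRC6B (0.50 ± 0.136, adjusted p = 0.00532) were larger in nuclei. TNRC6A was not called there (0.25 ± 0.198, adjusted p = 0.343) but was called with the culture as a replicate block (0.24, adjusted p = 0.0151) and without cytoplasmic wild-type passage 29 (0.46, adjusted p = 0.0249). For the AGO2 knockout, where 5.76% of genes were called, TNRC6C was called (0.43 ± 0.11, adjusted p = 0.0216), while the fits within a fraction gave 0.09 in nuclei and −0.33 in cytoplasm. That call was lost with reads scaled by transcript length (0.29, adjusted p = 0.318), on log2(TPM + 1) (0.18, adjusted p = 0.524), and without cytoplasmic wild-type passage 28 or AGO2 passage 9 (adjusted p = 0.0575 to 0.0665). For the AGO1 knockout, where 0.662% of genes were called, edgeR and DESeq2 called 0 of 3 and 0 had an unadjusted p below 0.05. For the AGO1/2/3 knockout, where 22.7% of genes were called, both tools called 0 of 3 and 1, TNRC6C (0.24, adjusted p = 0.124), had an unadjusted p below 0.05.

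The proteins that TNRC6 joins were followed through a list of 33 genes, all of which were tested. It holds the 4 Argonautes, 4 poly(A) tail genes, 11 CCR4-NOT subunits, 11 decapping and P-body genes and the 3 LIM proteins LIMD1, AJUBA and WTIP, which link Argonaute to TNRC6. In nuclei 18 were called higher and 6 lower in the AGO1/2 knockout, where 32.9% of all genes were called higher and 34.7% lower, with a median log2 fold change of 0.29 against −0.06 over all genes. In the AGO1/2/3 knockout 16 were higher and 8 lower, against 29.1% and 29.5% of all genes, with a median of 0.17 against −0.03. In cytoplasm of the AGO1/2 knockout, where 49.2% of all genes were called, 10 were higher and 12 lower (median −0.10). In cytoplasm of the AGO1/2/3 knockout, where 38.7% were called, 7 were higher and 6 lower (median −0.02), and the median of all genes was −0.01 in each. These splits turn on the scale: limma on log2(TPM + 1) called 11 higher and 9 lower in AGO1/2 nuclei, 4 and 12 in AGO1/2/3 nuclei, 2 and 22 in AGO1/2 cytoplasm and 1 and 19 in AGO1/2/3 cytoplasm. With reads scaled by transcript length they were 16 and 8, 11 and 8, 9 and 13, and 5 and 7. The shares of all genes called higher or lower on these scales are not given, here or for the counts on log2(TPM + 1) below. The counts on these scales therefore have no background beside them. On log2(TPM + 1) the median of all genes ran from −0.20 to 0.48 over all comparisons.

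Of the 11 decapping and P-body genes, edgeR called 8 higher and 0 lower in AGO1/2 nuclei (of all genes, 32.9% and 34.7%) and 7 and 0 in AGO1/2/3 nuclei (29.1% and 29.5%), where limma on log2(TPM + 1) called 5 and 1, and 1 and 2. PATL1, a P-body scaffold of decapping, led in AGO1/2 nuclei (log2 0.78 ± 0.0822, adjusted p = 7.89e-07), and LSM14B, an RNA-binding P-body protein, in AGO1/2/3 nuclei (0.50 ± 0.0586, adjusted p = 3.56e-06). In AGO1/2 cytoplasm 3 of the 11 rose and 6 fell (2 and 8 on log2(TPM + 1)), and PATL1 again had the largest value (0.87). In AGO1/2/3 cytoplasm 2 rose and 1 fell (1 and 7 on log2(TPM + 1)), with DCP2, the decapping enzyme, largest (0.55).

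Of the 11 CCR4-NOT subunits, the deadenylase complex that TNRC6 recruits, 6 rose and 3 fell in AGO1/2 nuclei, where 67.6% of all genes were called, and 5 rose and 4 fell in AGO1/2/3 nuclei (0 and 5 on log2(TPM + 1)), where 58.6% were. The catalytic subunit CNOT8 had the largest change in both (0.57 and 0.48, the latter 0.12 and not called on log2(TPM + 1)). In AGO1/2 cytoplasm 2 rose and 5 fell (0 and 8 on log2(TPM + 1)), with the catalytic subunit CNOT7 largest (0.64, but 0.13 and not called on log2(TPM + 1)), and in AGO1/2/3 cytoplasm 1 rose and 3 fell (0 and 8), with the deadenylase CNOT6L largest (−0.31). Among the poly(A) tail genes, PABPC4, a cytoplasmic poly(A)-binding protein, rose in both nuclei (0.37 and 0.29, but 0.14 and −0.07 and not called on log2(TPM + 1)), and PABPC1, the main one, fell in AGO1/2/3 cytoplasm (−0.31). AJUBA rose in both nuclei (1.06 ± 0.104 and 0.83 ± 0.104), and WTIP had the largest change of the LIM proteins in both cytoplasms (1.0 and 0.69, but 0.38 and 0.31 and not called on log2(TPM + 1)).

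In the single knockouts 16 of the 33 genes were called in AGO1 nuclei (8 higher, 8 lower), against 29.9% of all genes, and 17 in AGO2 nuclei (10 higher, 7 lower), against 40.2%. In cytoplasm 4 were called in the AGO1 knockout (3 higher, 1 lower), against 12.4% of all genes, and 2 in the AGO2 knockout (1 higher, 1 lower), against 16.1%. On log2(TPM + 1) the splits were 1 and 12, 0 and 13, 2 and 4, and 0 and 12 in the same order, again without the shares of all genes on that scale. The nuclear genes with the largest change in their sub-list were, in the AGO1 knockout, the decapping cofactor DCP1B (0.72), the deadenylase PAN2 (−0.45), CNOT3 (0.33) and AJUBA (0.33), of which CNOT3 (0.11) and AJUBA (0.06) were not called on log2(TPM + 1). In the AGO2 knockout they were the decapping helicase DDX6 (0.41), CNOT11 (0.29), WTIP (−0.28) and PABPC1 (0.22), of which DDX6 was not called on log2(TPM + 1) (0.09), CNOT11 and PABPC1 turned on log2(TPM + 1) (−0.05 and −0.06) and WTIP with reads scaled by transcript length (0.20).

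**Figure D5:**
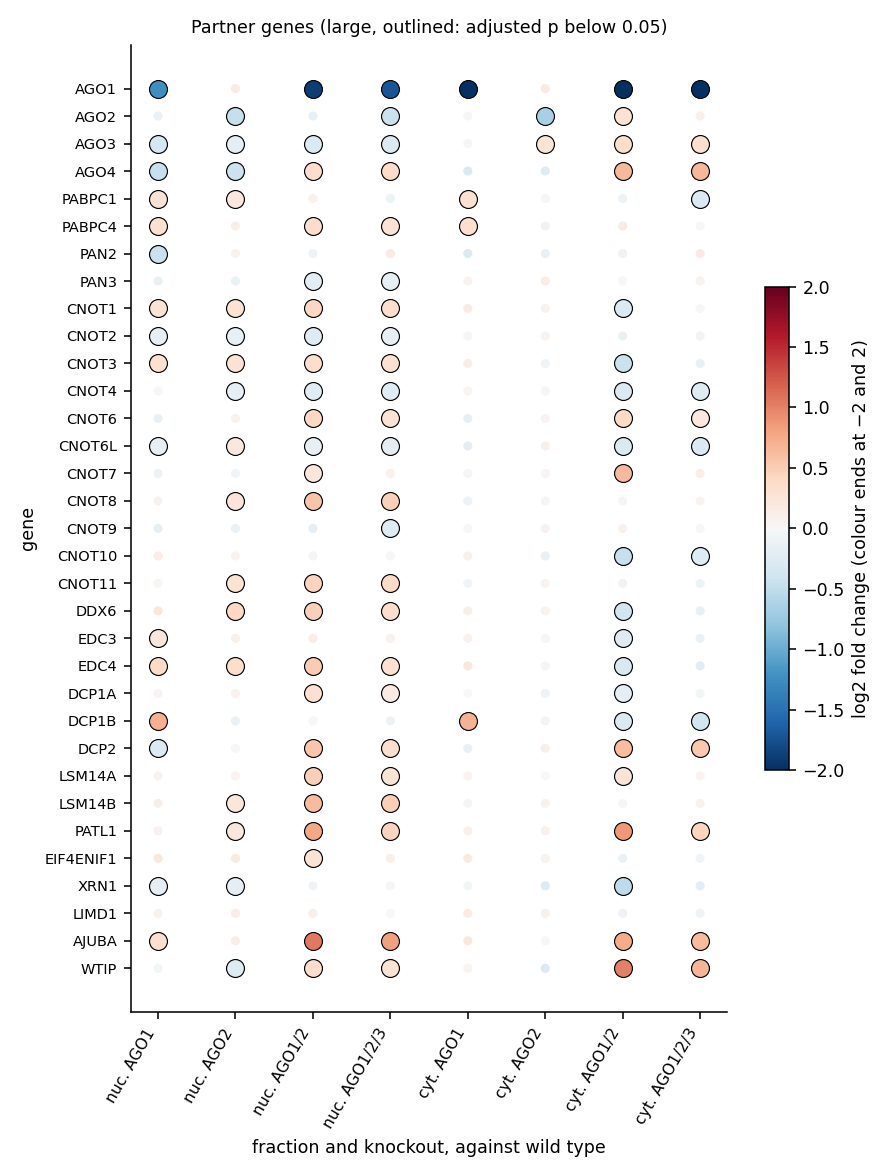
Log2 fold change (edgeR, as colour that ends at −2 and 2) of the 33 partner genes in each knockout and fraction against wild type, with the genes in rows in order of role. Large outlined points passed an adjusted p of 0.05. In AGO1/2 nuclei all 8 outlined decapping genes are red (higher), and AGO1 is blue (lower, −3.49 to −1.25) in the 6 comparisons of lines edited for it.

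Argonaute RNA gives a partial check of the labels. AGO1 fell in every line labelled for its loss, with log2 values of −1.25, −1.90 and −1.70 in AGO1, AGO1/2 and AGO1/2/3 nuclei and −3.49, −3.19 and −3.29 in the cytoplasm of those lines. AGO2, the Argonaute that can cut its target, fell in AGO2 knockout nuclei (−0.47) and cytoplasm (−0.67) and in AGO1/2/3 nuclei (−0.44). It was not called in AGO1/2 nuclei (−0.18, adjusted p = 0.0536), although limma called it lower there on log2(TPM + 1) (−0.62). In AGO1/2 cytoplasm the calls for AGO2 were opposite, higher by edgeR (0.31) and lower by limma on log2(TPM + 1) (−0.30, adjusted p = 0.0249). AGO3 fell in AGO1/2/3 nuclei (−0.30) and also in nuclei of the lines not edited for it (−0.35, −0.19 and −0.28 in AGO1, AGO2 and AGO1/2). In cytoplasm it rose in the AGO1/2/3 (0.34), AGO1/2 (0.37) and AGO2 knockouts (0.28), with values of 0.050, 0.025 and 0.077 and no call on log2(TPM + 1). An edit that ends the protein need not lower its RNA, so the levels of AGO2 and AGO3 do not check those edits. AGO4, which was not edited, fell in AGO1 (−0.46) and AGO2 nuclei (−0.43) and rose in nuclei (0.36 and 0.38) and cytoplasm (0.65 and 0.66) of the AGO1/2 and AGO1/2/3 knockouts. On log2(TPM + 1) AGO4 was called in AGO2 (−0.41) and AGO1/2/3 nuclei (0.39) and not in AGO1 nuclei (−0.31), AGO1/2 nuclei (0.18) or the AGO1/2 and AGO1/2/3 cytoplasms (0.18 and 0.23).

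Across the 15 nuclear libraries the log2 CPM of TNRC6B and TNRC6C had a Pearson correlation of 0.84, TNRC6A and TNRC6C of 0.81 and TNRC6A and TNRC6B of 0.55. Across the 15 cytoplasmic libraries the values were 0.76, 0.35 and 0.30. These libraries share genotype groups and differ in depth, so the values are descriptions. How often other pairs of genes reach such values was not counted. Among 16723 genes, the 3 whose pattern was most like a member, by the smaller of its nuclear and cytoplasmic correlations, were MED24, PPP2R5D and PSME4 for TNRC6A (smaller value 0.88, 0.86 and 0.85). For TNRC6B they were ACO1, HEATR5A and SEC24D (0.95, 0.92 and 0.92), and for TNRC6C MED13, ABCB1 and APPBP2 (0.86, 0.84 and 0.83).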

How the data were processed

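Per the labels and the study's methods, the authors removed ribosomal RNA, made stranded total RNA libraries from both fractions, and aligned paired reads to hg38 with STAR (2.5.3a in the submitters' notes) before Salmon (0.11.0 there). The deposited tables give, for 200401 transcripts, estimated counts that are not normalized, and TPM, which the authors' Salmon run scaled by length and library total. GENCODE 44 identifiers matched 195887 transcripts, and the other 4514, with 2.23% to 4.01% of reads, were left out. Of the matched transcripts 85.2% had the length given in that release. The 8 eCLIP samples were not analysed here.

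Counts were summed per gene, rounded and tested with edgeR 4.0.16 (quasi-likelihood, TMM, filterByExpr minimum count 10, all 5 genotypes in 1 fit, adjusted p of 0.05 over all genes), with limma 3.58.1 and DESeq2 1.42.0 as alternatives in R 4.3.3. The SE is the log2 fold change divided by the root of F, and so carries the spread pooled over all groups of the fit rather than that of the compared groups alone. Fraction comparisons used all 30 libraries. Scripts were tested on simulated data with a set spread. There edgeR recovered 44% of genes changed 1.5-fold and 97% of those changed 2-fold in AGO1/2 nuclei. For the AGO1/2 interaction it recovered 7% and 60%. Of the DESeq2 calls 11.9% and 13.5% were false in these comparisons, against 5.37% and 2.90% for edgeR. A missing call therefore does not show that a gene was unchanged. A nuclear and a cytoplasmic library with the same genotype and passage number were taken to come from 1 culture, which the labels do not state. Over 15 such pairs the deviations from group means correlated at 0.00401 to 0.649, above 0.1 in 10, and above the mean with other passages in 15. The last count adds nothing, because deviations from a group mean cancel out within the group. The culture was also fitted as a replicate block. The members, gene lists and miRNAs were chosen with earlier results of these data known. Named were the 3 members, the 4 Argonautes, the largest called partner of each sub-list, the 3 likest genes, and the 3 leading transcripts of each member, besides 2 transcripts noted as chosen later.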

Additional observations from a re-analysis of the deposited data

Results flagged for a closer look

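In 3 cases the effect of a knockout differed between nuclear and cytoplasmic RNA by edgeR's interaction test over all 30 libraries, whose scaling differs from that of the fits within a fraction, so that the values of those fits do not subtract to it exactly. For TNRC6B in the AGO1/2 knockout the nuclear log2 fold change exceeded the cytoplasmic one by 0.50 (adjusted p = 0.00532), and the fits within a fraction gave 0.39 in nuclei and −0.18 in cytoplasm. For TNRC6C in the AGO1/2 knockout the excess was 0.68 (adjusted p = 2.58e-05), beside 0.75 and −0.01 within the fractions. For TNRC6C in the AGO2 knockout it was 0.43 (adjusted p = 0.0216), beside 0.09 and −0.33, and this call was lost without cytoplasmic wild-type passage 28 or AGO2 passage 9.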

How the results depend on the processing

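The 3 genes were refitted under each alternative in all comparisons, which gave 642 values. Of these 558 stayed on their side of the threshold, 35 lost a call and 41 gained one. The other 8 turned direction with a call in at least 1 of the fits compared. A turn of direction without a call in either fit was counted among the 558. The 2 alternatives without retained-intron transcripts were chosen after seeing the data. The cause of the changes was not tested. All 3 genes were called higher in AGO1/2 nuclei by edgeR and DESeq2 under each alternative on counts except TNRC6A with reads scaled by transcript length. Values are log2 fold changes. With DESeq2, calls were gained for TNRC6A between the fractions of AGO1 (0.35), TNRC6B in AGO1 nuclei (0.17), and TNRC6C between the fractions of AGO1 (0.15). With reads scaled by transcript length, calls were lost for TNRC6A in AGO1/2 nuclei (0.11), TNRC6B in AGO1/2/3 cytoplasm (0.13) and in AGO1/2/3 against AGO1/2 cytoplasm (0.45), and TNRC6C in AGO1/2/3 against AGO1/2 nuclei (−0.11) and in the interaction for AGO2 (0.29), while calls were gained for TNRC6A between the fractions of AGO1 (0.36), TNRC6B in AGO1 nuclei (0.23), and TNRC6C between the fractions of wild type (0.50) and between the fractions of AGO1 (0.47), while the direction turned for TNRC6A in AGO1/2/3 nuclei (−0.0034). With limma on log2(TPM + 1), calls were lost for TNRC6A in AGO1/2 nuclei (0.044) and in AGO1/2/3 cytoplasm (0.20), TNRC6B in AGO1/2 nuclei (0.17) and in AGO1/2/3 nuclei (0.19), and TNRC6C in AGO1/2/3 nuclei (0.15), in AGO1/2/3 against AGO1/2 nuclei (−0.27) and in the interaction for AGO2 (0.18), while calls were gained for TNRC6A between the fractions of AGO1 (0.82) and between the fractions of AGO1/2/3 (0.91), TNRC6B in AGO1/2 cytoplasm (−0.67), and TNRC6C in AGO1/2 cytoplasm (−0.34), between the fractions of wild type (0.96) and between the fractions of AGO1 (0.84), while the direction turned for TNRC6A in AGO1/2/3 nuclei (−0.24), TNRC6B in AGO1/2/3 cytoplasm (−0.12), and TNRC6C in AGO2 nuclei (−0.35). With limma on log2(TPM + 0.1), calls were lost for TNRC6A in AGO1/2 nuclei (0.046) and in AGO1/2/3 cytoplasm (0.22), TNRC6B in AGO1/2 nuclei (0.18) and in AGO1/2/3 nuclei (0.20), and TNRC6C in AGO1/2/3 nuclei (0.16), in AGO1/2/3 against AGO1/2 nuclei (−0.29) and in the interaction for AGO2 (0.26), while calls were gained for TNRC6A between the fractions of AGO1 (0.85) and between the fractions of AGO1/2/3 (0.95), TNRC6B in AGO1/2 cytoplasm (−0.75), and TNRC6C in AGO1/2 cytoplasm (−0.41), between the fractions of wild type (1.07) and between the fractions of AGO1 (0.94), while the direction turned for TNRC6A in AGO1/2/3 nuclei (−0.25), TNRC6B in AGO1/2/3 cytoplasm (−0.13), and TNRC6C in AGO2 nuclei (−0.38). With a mean count of at least 50, calls were lost for TNRC6A in AGO1/2/3 nuclei (0.24), and TNRC6C in AGO1/2/3 against AGO1/2 nuclei (−0.19), while calls were gained for TNRC6A between the fractions of AGO1 (0.50) and between the fractions of AGO1/2/3 (0.35), and TNRC6C between the fractions of wild type (0.27) and between the fractions of AGO1 (0.30). Without retained-intron transcripts on log2(TPM + 1), calls were lost for TNRC6A in AGO1/2/3 nuclei (0.19) and in AGO1/2/3 cytoplasm (0.21), and TNRC6C in AGO1/2/3 against AGO1/2 nuclei (−0.28) and in the interaction for AGO2 (0.25), while calls were gained for TNRC6A between the fractions of AGO1 (0.44), between the fractions of AGO1/2/3 (0.66) and in the interaction for AGO1/2 (0.72), TNRC6B in AGO1/2 cytoplasm (−0.65), and TNRC6C in AGO1/2 cytoplasm (−0.37), between the fractions of wild type (0.60) and between the fractions of AGO1 (0.53), while the direction turned for TNRC6B in AGO1/2/3 cytoplasm (−0.10). With only the compared groups in the fit, calls were lost for TNRC6A in AGO1/2/3 nuclei (0.30), in AGO1/2/3 cytoplasm (0.38) and between the fractions of wild type (0.40), TNRC6B in AGO1/2/3 against AGO1/2 cytoplasm (0.50), and TNRC6C in AGO1/2/3 against AGO1/2 nuclei (−0.21), while calls were gained for TNRC6A between the fractions of AGO1 (0.31) and between the fractions of AGO1/2/3 (0.23), and TNRC6C between the fractions of AGO1 (0.12). With no filter on low counts, calls were lost for TNRC6A between the fractions of wild type (0.22), TNRC6B between the fractions of AGO1 (0.19), and TNRC6C in AGO1/2/3 against AGO1/2 nuclei (−0.23), while calls were gained for TNRC6C in the interaction for AGO1/2/3 (0.38). With reads thinned to the smallest library, calls were lost for TNRC6C in AGO1/2/3 against AGO1/2 nuclei (−0.23), while calls were gained for TNRC6A between the fractions of AGO1 (0.33). Without retained-intron transcripts in edgeR, calls were lost for TNRC6C in AGO1/2/3 against AGO1/2 nuclei (−0.21), while calls were gained for TNRC6A between the fractions of AGO1 (0.37), and TNRC6C between the fractions of AGO1 (0.18). With RLE size factors, calls were gained for TNRC6A between the fractions of AGO1 (0.35). With the culture as a replicate block, calls were gained for TNRC6A between the fractions of AGO1 (0.31), between the fractions of AGO1/2/3 (0.19) and in the interaction for AGO1/2 (0.24), and it changed no other call.

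Partner genes called numbered, in AGO1 nuclei 9 with reads scaled by transcript length and 10 without retained-intron transcripts on log2(TPM + 1), in AGO2 nuclei 9 without retained-intron transcripts on log2(TPM + 1) and 10 with only the compared groups in the fit, in AGO1/2/3 nuclei 15 without retained-intron transcripts on log2(TPM + 1), in AGO2 cytoplasm 4 with DESeq2, 12 with limma on log2(TPM + 1), 12 with limma on log2(TPM + 0.1), 11 without retained-intron transcripts on log2(TPM + 1) and 1 with only the compared groups in the fit, in AGO1/2/3 cytoplasm 20 with limma on log2(TPM + 1), 20 with limma on log2(TPM + 0.1) and 20 without retained-intron transcripts on log2(TPM + 1). Transcripts of the family called for usage numbered, in AGO1 nuclei 1 with limma diffSplice, in AGO1/2 nuclei 9 with limma diffSplice and 1 with only the compared groups in the fit, in AGO1/2/3 nuclei 8 with limma diffSplice and 1 with a mean count of at least 50, in AGO1/2 cytoplasm 1 with limma diffSplice, in AGO1/2/3 cytoplasm 1 with limma diffSplice. The other 75 of 88 partner counts and 25 of 32 transcript counts stayed within 1.5 times the reported ones. For the partner counts, the shares of all genes called under these alternatives are not given.

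With 1 library left out in turn, 377 of 414 values kept their call, 29 lost it and 8 gained it. The results that changed ran as follows, by gene: TNRC6A in AGO2 nuclei (0.057 to 0.35), in AGO1/2/3 nuclei (0.16 to 0.45), in AGO1/2/3 cytoplasm (0.19 to 0.50), between the fractions of wild type (0.14 to 0.55), between the fractions of AGO1 (0.26 to 0.36) and in the interaction for AGO1/2 (0.0599 to 0.46), TNRC6B in AGO1/2 cytoplasm (−0.33 to −0.057), in AGO1/2/3 cytoplasm (0.27 to 0.34) and in AGO1/2/3 against AGO1/2 cytoplasm (0.37 to 0.65), and TNRC6C in AGO1 nuclei (0.076 to 0.19), in AGO2 nuclei (0.057 to 0.18), in AGO1/2/3 against AGO1/2 nuclei (−0.26 to −0.20), in AGO2 cytoplasm (−0.39 to −0.27), in AGO1/2/3 cytoplasm (0.14 to 0.27), in AGO1/2/3 against AGO1/2 cytoplasm (0.15 to 0.31) and in the interaction for AGO2 (0.36 to 0.50). Counts of partner genes ran from 10 to 17 in AGO2 nuclei and 1 to 2 in AGO2 cytoplasm, and counts of transcripts from 0 to 1 in AGO1 nuclei, 0 to 5 in AGO1/2 nuclei and 0 to 1 in AGO1/2/3 nuclei. Without the nuclear AGO2 library of passage 8 or 9 the AGO2 partner count moved, and without cytoplasmic wild-type passage 29 or AGO2 passage 8 or 10 the cytoplasmic one did. TNRC6B in AGO1/2 cytoplasm gained its call without AGO1/2 passage 11, as did TNRC6C in AGO1/2/3 against AGO1/2 cytoplasm, and TNRC6C in AGO1/2/3 cytoplasm without wild-type passage 28. TNRC6A between the fractions of wild type was not called without nuclear passage 27 or 28 or cytoplasmic passage 29, and between the fractions of AGO1 it was called without nuclear AGO1 passage 8. The transcript count in AGO1/2 nuclei moved with each of the 6 libraries. TNRC6C, the member with the fewest reads, has the least depth behind its values.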

Other observations

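The summed TPM of the 3 TNRC6 genes was 70.5 ± 10.0 (SD, n = 3) in wild-type, 61.3 ± 8.81 in AGO1, 58.9 ± 4.97 in AGO2, 78.0 ± 4.53 in AGO1/2 and 68.3 ± 1.85 in AGO1/2/3 nuclei. In cytoplasm the sums were 30.3 ± 6.15, 31.7 ± 0.959, 24.9 ± 0.820, 22.8 ± 3.46 and 30.9 ± 2.48 TPM in the same order.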
